A study of Rattus norvegicus with 29 samples.

Results

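Forelimb sensory ganglia of rats that had received neurotrophin-3 (NT3) after a stroke were set against those of sham rats at week 11, across the whole transcriptome. The libraries were chosen by their labels for group and week, which gave 5 NT3 rats and 5 sham rats, 10 of the 29 libraries in the series. The NT3 group held elderly Lister Hooded rats with a unilateral cortical stroke and NT3 infused under the skin, labelled week 11 (rats 36, 69, 71, 83 and 89). The sham group held rats of the same strain and week (rats 8, 11, 54, 63 and 81), for which the labels use sham where the series description has naïve. Since no infusion of sham rats is mentioned, the stroke, the infusion and NT3 itself cannot be told apart in this comparison. The labels do not say from when the weeks count. Poly-A RNA of the whole C6 to C8 ganglia of the affected side was sequenced, 1 library per rat. The fit also held the vehicle rats with a stroke (5 at week 11, 5 at week 5), NT3 rats at week 5 (5) and sham rats at week 5 (4), which served to estimate the spread and are named where their values are given.

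Dorsal root ganglia hold the cell bodies of sensory neurons, wrapped by satellite glia, with axons ensheathed by Schwann cells among vessels, fibroblasts and macrophages. NT3 is a neurotrophin that binds the receptor TrkC (Ntrk3) most strongly and the low-affinity receptor p75 (Ngfr) as well. In the ganglion TrkC marks above all the proprioceptors, the large neurons that report muscle stretch, and NT3 supports them during development.

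Levels are given as CPM, the counts of a transcript relative to the library's total, after scaling by TMM, a correction for the composition of each library, and are listed in the order of rats 36, 69, 71, 83 and 89 for NT3 and 8, 11, 54, 63 and 81 for sham. They are not divided by transcript length, so they compare rats and not genes. Fold changes are log2 of NT3 over sham with an approximate standard error (SE). Reads counted on transcripts numbered 17678946 to 21696052 per NT3 library and 16703574 to 22773108 per sham library. All 10 libraries held the transcripts of a sensory ganglion. Nefh, the heavy neurofilament of large sensory neurons, stood at 4086 to 4611 CPM in NT3 rats and 4003 to 4709 CPM in sham rats. Pmp22, a membrane protein of peripheral myelin, stood at 1449 to 1687 CPM in NT3 rats and 1404 to 1692 CPM in sham rats. Reads that aligned outside every annotated transcript made up 26%, 24.6%, 27.1%, 27.9% and 27.9% of the listed reads in the NT3 rats and 21.1%, 21.8%, 27.8%, 26% and 27.0% in the sham rats. Sham rats 8 and 11 had the lowest shares of all 29 libraries, and the other 3 sham rats lay within the range of the NT3 rats. The group means were 26.7% ± 1.40 in NT3 rats and 24.7% ± 3.10 in sham rats (SD, n = 5 each), a difference of 1.98 percentage points with an exact two-sided permutation p of 0.238 (0.476 adjusted over 4 library measures).

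No transcript passed the test between NT3 and sham rats at week 11. Of 12556 transcripts tested, 0 (0%) had an adjusted p under 0.05 in edgeR, and the smallest adjusted p was 0.505. At an unadjusted p under 0.05 the NT3 mean was higher for 288 transcripts (2.29% of those tested) and lower for 857 (6.83%). DESeq2 called 0 transcripts (1096 at an unadjusted p under 0.05). Limma voom with quality weights called 4, namely Pex11a, Wdr93, Sla2 and Msx3, and at an unadjusted p under 0.05 it put 609 transcripts higher and 579 lower, without the excess of lower ones. With the share of reads outside transcripts as a covariate edgeR again called 0, and 173 transcripts (1.38%) were higher and 633 (5.04%) lower at an unadjusted p under 0.05, or 272 higher and 513 lower when counts were scaled by total reads alone. Without sham rats 8 and 11, a setting added after the data were seen, edgeR called 0 and the counts were 76 higher (0.605%) and 35 lower (0.279%), so that lower transcripts no longer outnumbered higher ones. With the covariate and without those rats together, 96 were higher and 222 lower. Single libraries also moved the 1145 transcripts at an unadjusted p under 0.05, which numbered 593 without sham rat 8, 358 without sham rat 11, 2292 without sham rat 54 and 685 without NT3 rat 83. Of the 857 transcripts lower in the fit to all libraries, 769 (89.7%) had sham rats 8 and 11 as the 2 highest of the 10 libraries, against 2146 (17.1%) of all transcripts tested. The 5 NT3 rats all lay above the 5 sham rats for 15 transcripts (0.119%) and all below them for 35 (0.279%).

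**Figure D1:**
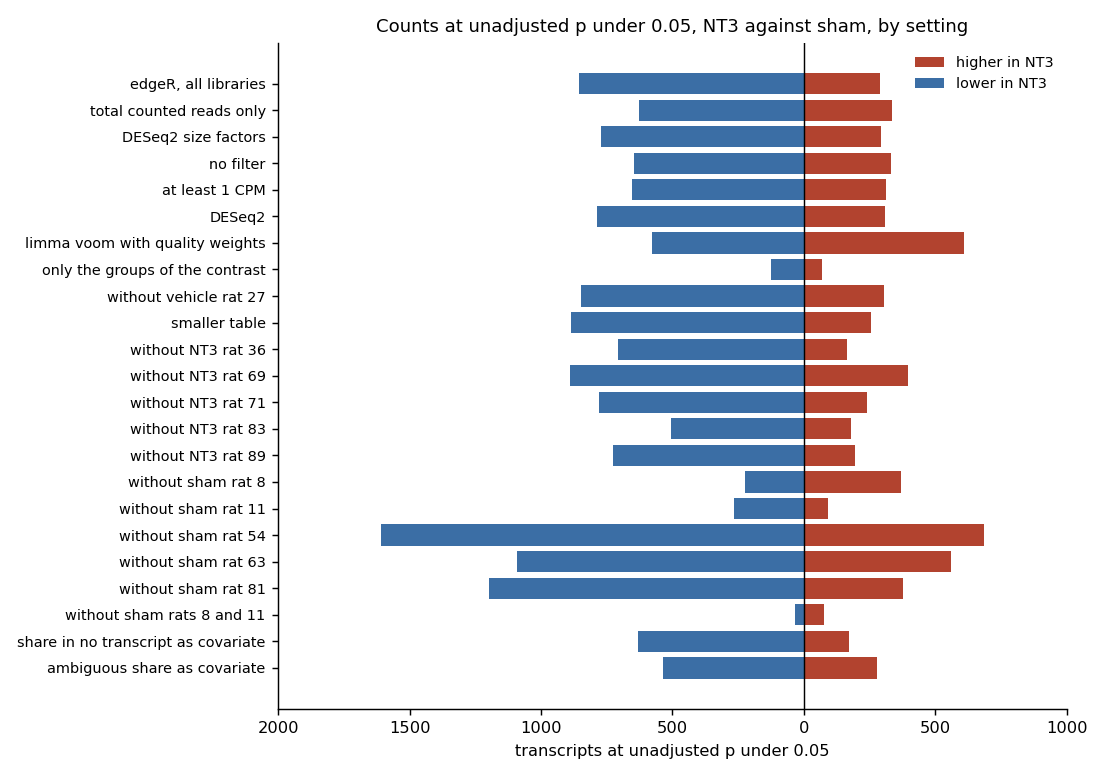
Transcripts at an unadjusted p under 0.05 between NT3 and sham rats at week 11, drawn to the right where the NT3 mean was higher and to the left where it was lower, for each way of processing. The lower transcripts number 857 with all libraries, 225 without sham rat 8, 265 without sham rat 11 and 35 without both, and 1608 without sham rat 54.

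Genes of protein synthesis and of mitochondrial respiration had lower means in NT3 rats as whole groups, and these differences were smaller without sham rats 8 and 11. For the proteins of the cytosolic ribosome, all 71 tested transcripts had a negative log2 fold change, with a median of -0.26, and 50 of them were lower at an unadjusted p under 0.05, against 6.83% of all transcripts. For the subunits of the respiratory chain, 70 of 71 were negative, with a median of -0.26, and 53 were lower at that threshold. The proteins of the mitochondrial ribosome (59 of 61 negative, median -0.19, 29 lower) and the subunits of the proteasome, the protease that degrades tagged proteins (30 of 33 negative, median -0.15, 17 lower), leaned the same way. Over all tested transcripts the median was 0.01 and 6025 of 12556 were negative, and no member of these 4 lists passed the test after adjustment.

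Among the members, Rps13, a protein of the small ribosomal subunit, had 81.1, 88.8, 81.6, 83.9 and 81.2 CPM in NT3 rats, against 117, 128, 89.4, 91.3 and 90.0 CPM in sham rats. The groups did not overlap, but 3 of the sham rats lay just above the highest NT3 rat and only rats 8 and 11 lay far above. Its log2 fold change was -0.31 ± 0.09 (SE; adjusted p 0.505 in edgeR), -0.19 with the covariate and -0.10 without rats 8 and 11. Ndufb8, a subunit of respiratory complex I, had 156, 150, 161, 141 and 148 CPM in NT3 rats, against 234, 240, 155, 177 and 162 CPM in sham rats. Here rat 54 fell within the NT3 range, and the log2 fold change was -0.36 ± 0.10 (SE; adjusted p 0.505), -0.20 with the covariate and -0.11 without rats 8 and 11. Rpl36a of the large ribosomal subunit (66.8 ± 2.93 CPM in NT3 rats, 83.6 ± 11.2 CPM in sham rats; SD, n = 5 each) and the complex I subunit Ndufa2 (46.9 ± 1.87 CPM in NT3 rats, 60.0 ± 11.4 CPM in sham rats) also had groups that did not overlap. The same held for Ndufa9, Ndufb6, Ndufb9, Rps20 and Mrps16, of which Ndufb6, Ndufb9 and Rps20 are named because their values were seen. Margins could be narrow: NT3 rat 71 had 28.65 CPM of Mrps16 and sham rat 81 had 28.66 CPM. All NT3 rats lay below all sham rats for 3 of 71 cytosolic ribosomal, 4 of 71 respiratory and 1 of 61 mitochondrial ribosomal transcripts, against 0.279% of all. The log2 fold changes of Ndufa9 and Mrps16, -0.27 and -0.31, were -0.07 and -0.10 without rats 8 and 11. Genes of ribosomal proteins have many processed copies in the genome, so their counts depend on how reads with several matches were handled.

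The mean log2 CPM of the 71 cytosolic ribosomal transcripts was 7.07, 7.18, 7.04, 7.04 and 7.07 in NT3 rats, against 7.51, 7.65, 7.06, 7.17 and 7.19 in sham rats. For the respiratory chain it was 6.93, 7.01, 7.01, 6.88 and 6.93 in NT3 rats, against 7.38, 7.53, 7.0, 7.01 and 7.03 in sham rats. In both lists sham rats 8 and 11 stood above the other 8 rats, which lay between 7.04 and 7.19 for the ribosome and between 6.88 and 7.03 for the respiratory chain. Rats 8 and 11 were the 2 highest of the 10 libraries for 63 of 71 ribosomal transcripts (88.7%) and 58 of 71 respiratory transcripts (81.7%). With the covariate the medians were -0.11 for the ribosome and -0.13 for the respiratory chain, with 7 and 17 of 71 transcripts lower at an unadjusted p under 0.05, against 5.04% of all transcripts. Without rats 8 and 11 they were -0.05 and -0.05, with 0 transcripts lower at that threshold in either list, against 0.279% of all transcripts. In that fit 8 of 71 ribosomal and 13 of 71 respiratory transcripts were positive, against 6591 of all 12556 tested. In whole tissue, fewer cells of a type and less RNA per cell cannot be told apart, and whether the share of reads outside transcripts bears on these lists beyond this covariate was not tested.

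**Figure D2:**
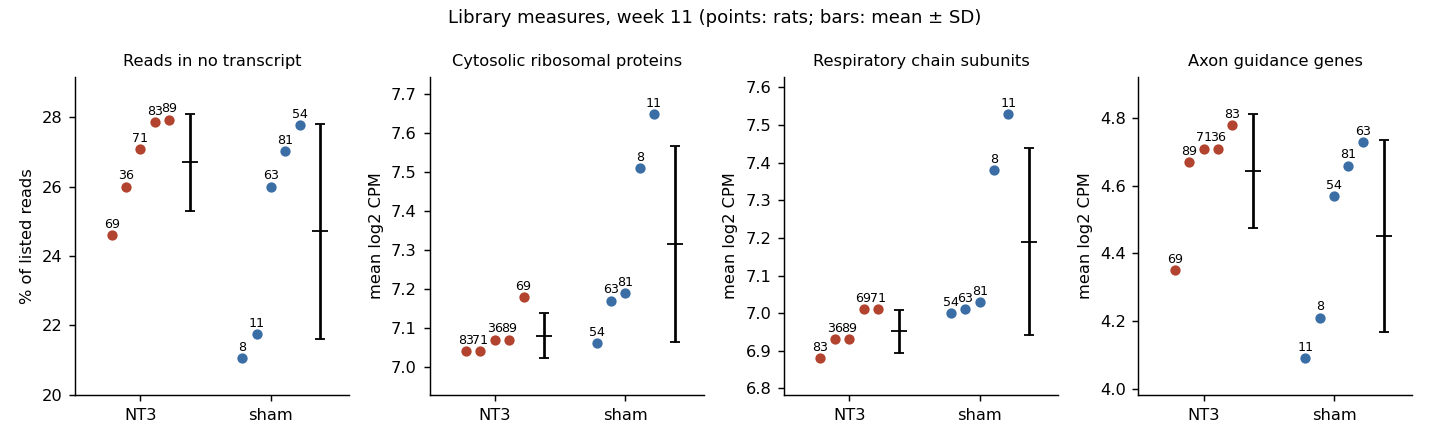
Each point is 1 rat, labelled with its number, with NT3 on the left and sham on the right of each panel, and the bars are mean ± SD (n = 5 each). The panels give the share of listed reads outside every transcript and the mean log2 CPM of 3 gene lists; sham rats 8 and 11 are the lowest in the share (21.1% and 21.8%), the highest in the ribosomal and respiratory lists and the lowest in the axon guidance list.

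The starts of ribosomal protein genes are shown because these genes leaned together. In vertebrates such messages usually begin with an unbroken run of pyrimidines (C or T) that ties their translation to growth signals. The stretches run 5′ to 3′ from 60 bases before to 20 bases after the annotated start in RefSeq on the assembly GRCr8, with a run of at least 7 pyrimidines that reaches within 10 bases of the start in capitals. They are Rps13 (chr1:180009641-180009720, minus strand), Rps14 (chr18:56498200-56498279, plus strand) and, without such a run, Rpl36a (chrX:102059389-102059468, plus strand) and Ndufb8 (chr1:253362917-253362996, minus strand).
Rps13: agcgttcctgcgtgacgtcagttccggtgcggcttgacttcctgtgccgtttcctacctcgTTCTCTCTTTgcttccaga
Rps14: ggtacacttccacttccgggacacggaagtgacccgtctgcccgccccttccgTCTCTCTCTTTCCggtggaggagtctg
Rpl36a: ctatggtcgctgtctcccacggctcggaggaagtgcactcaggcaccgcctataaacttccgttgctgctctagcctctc
Ndufb8: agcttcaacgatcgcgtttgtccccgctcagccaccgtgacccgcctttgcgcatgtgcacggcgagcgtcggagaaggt
Of the 71 tested ribosomal transcripts' genes, 56 matched the RefSeq promoter table, and 44 of their 57 listed starts (77.2%) held such a run, against 14 of 64 starts of respiratory chain genes (21.9%) and 6402 of all 33469 (19.1%). Rps14 itself had 139, 150, 140, 139 and 135 CPM in NT3 rats, against 220, 219, 138, 156 and 165 CPM in sham rats, with rat 54 inside the NT3 range.

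The smallest p of the whole comparison belonged to Pex11a, a membrane protein of peroxisomes that helps them elongate and divide. It had 31.6, 17.95, 29.5, 25.8 and 26.1 CPM in NT3 rats, against 11.8, 18.2, 15.5, 17.9 and 12.2 CPM in sham rats. Of the NT3 rats, 4 lay above every sham rat, and rat 69 lay among the sham rats. The log2 fold change was 0.79 ± 0.19 (SE), with an unadjusted p of 0.000281 and an adjusted p of 0.505 in edgeR. It was 0.68 with the covariate and 0.80 without sham rats 8 and 11, and it was one of the 4 transcripts that limma voom with quality weights called (1.08, adjusted p 0.0148). The list of peroxisome genes did not lean with it, since 14 of 31 tested transcripts, Pex11a among them, were positive and the list's median was -0.03.

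Wdr93, which encodes a protein with WD repeats, was also among the 4 voom calls and lies next to Pex11a. It is named because of that call, since it averaged under 1 CPM and so fell outside the rule for named genes. It had 1.70, 0.611, 1.06, 1.484 and 1.599 CPM in NT3 rats, against 0.727, 0.500, 0.220, 0.608 and 0.159 CPM in sham rats. Again rat 69 was the only NT3 rat below a sham rat (rat 8), and the log2 fold change was 1.52 ± 0.39 (SE; adjusted p 0.505 in edgeR), 1.41 with the covariate and 1.90 without rats 8 and 11. The annotated starts of Pex11a (minus strand) and Wdr93 (plus strand) point away from each other and lie 84 bases apart. The sequence between them (chr1:143096491-143096575, GRCr8, plus strand, from the start of Pex11a on the left to that of Wdr93 on the right) is shown because both genes have it as their upstream region.
Pex11a to Wdr93: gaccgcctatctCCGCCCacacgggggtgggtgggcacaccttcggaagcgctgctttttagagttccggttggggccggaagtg
The capitals mark the letters CCGCCC, searched on both strands (GGGCGG on the other), found here 1 time, and present in the 85 bases before the start in 19.6% of all 33469 listed promoters. The other voom calls were Sla2 and Msx3, both with an adjusted p of 0.505 in edgeR. Sla2, an adaptor protein of lymphocyte signalling, averaged 0.662 ± 0.108 CPM in NT3 rats and 0.367 ± 0.200 CPM in sham rats. The homeobox gene Msx3 averaged 0.263 ± 0.118 CPM in NT3 rats and 0.538 ± 0.262 CPM in sham rats (SD, n = 5 each).

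Vwf, the blood clotting factor made by endothelial cells, had 54.9, 69.8, 51.1, 56.7 and 67.2 CPM in NT3 rats, against 50.1, 33.2, 39.8, 48.1 and 44.0 CPM in sham rats. Every NT3 rat lay above every sham rat, by a narrow margin between NT3 rat 71 and sham rat 8. The log2 fold change was 0.48 ± 0.14 (SE; unadjusted p 0.00244, adjusted p 0.505 in edgeR), 0.52 with the covariate and 0.46 without rats 8 and 11. The markers of vessels as a group differed by less: 22 of 34 tested endothelial and pericyte transcripts were positive with a median of 0.10, which was 0.03 with the covariate and 0.01 without rats 8 and 11. Nos3, the nitric oxide synthase of endothelium, averaged 9.78 ± 1.08 CPM in NT3 rats and 7.78 ± 1.20 CPM in sham rats. Plvap, a protein of endothelial pores, averaged 3.77 ± 0.505 CPM in NT3 rats and 4.96 ± 0.560 CPM in sham rats (SD, n = 5 each).

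Pcdhb6, a clustered protocadherin that gives neurons a surface identity, had 14.0, 12.2, 13.6, 13.6 and 13.2 CPM in NT3 rats, against 11.4, 8.503, 11.6, 10.6 and 9.82 CPM in sham rats. The groups did not overlap, and the log2 fold change was 0.36 ± 0.11 (SE; adjusted p 0.505 in edgeR), 0.29 with the covariate and 0.33 without rats 8 and 11. Members of this cluster are similar in sequence, so reads could be shared between them. Adamtsl3, a matrix protein related to the ADAMTS proteases, had 32.2, 23.8, 30.5, 35.3 and 31.5 CPM in NT3 rats, against 17.9, 17.8, 19.8, 25.3 and 21.2 CPM in sham rats, a log2 fold change of 0.59 ± 0.19. This fold change was 0.38 with the covariate and 0.49 without rats 8 and 11. Only NT3 rat 69 and sham rat 63 crossed over. Prlr, the prolactin receptor, averaged 5.92 ± 0.704 CPM in NT3 rats and 4.58 ± 0.966 CPM in sham rats (SD, n = 5 each; log2 fold change 0.37 ± 0.12, SE).

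Of the remaining transcripts with the smallest p among those higher in NT3 rats, several had smaller differences without sham rats 8 and 11. Baz1b, a subunit of chromatin remodelling complexes, had 135, 130, 129, 134 and 134 CPM in NT3 rats, against 89.1, 77.2, 131, 123 and 122 CPM in sham rats. Its log2 fold change of 0.29 was 0.09 without rats 8 and 11. Pdcd11, which takes part in the processing of ribosomal RNA, had groups that did not overlap (80.9 ± 1.26 CPM in NT3 rats, 69.5 ± 10.9 CPM in sham rats), and its log2 fold change was 0.22 with all libraries and 0.09 without these rats. Gna13, a G protein subunit (0.31, and 0.17 without them), and the transcription factor Zbtb14 (0.20, and 0.11 without them) kept more of their difference. Tent4a, a poly(A) polymerase, had a log2 fold change of 0.18 and of 0.13 without rats 8 and 11, and its groups did not overlap (53.2 ± 1.84 CPM in NT3 rats, 46.9 ± 4.33 CPM in sham rats; SD, n = 5 each).

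**Figure D3:**
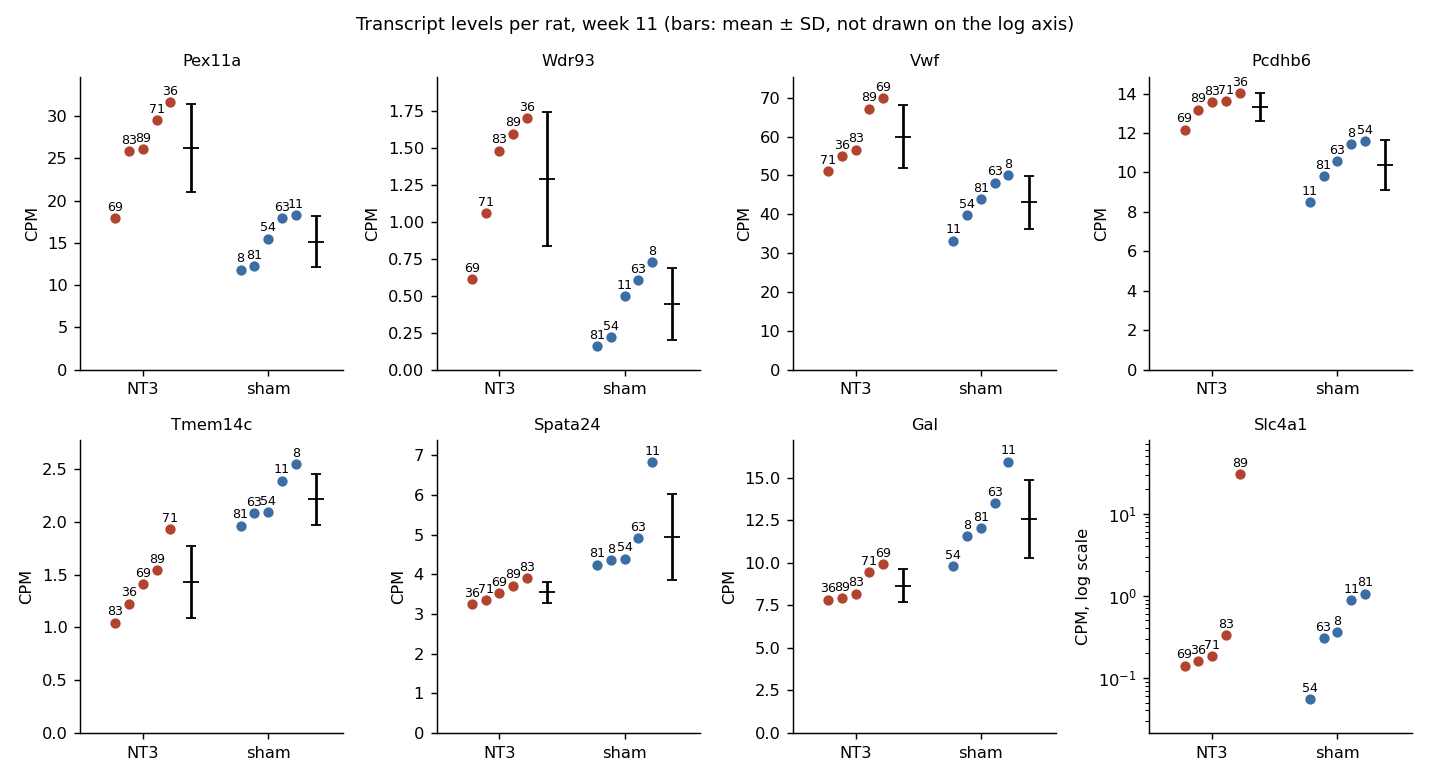
Levels of 8 transcripts in each rat at week 11, in CPM from 0 upward except for Slc4a1, which is on a log axis; NT3 stands left and sham right, numbers are rats, and bars are mean ± SD (n = 5 each; not drawn on the log axis). The groups do not overlap for Vwf, Pcdhb6, Tmem14c and Spata24, NT3 rat 69 lies among the sham rats for Pex11a and Wdr93, and NT3 rat 89 alone carries Slc4a1.

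Among the transcripts with lower means in NT3 rats, Tmem14c, a mitochondrial carrier needed for haem synthesis, had 1.23, 1.41, 1.93, 1.04 and 1.54 CPM in NT3 rats, against 2.54, 2.39, 2.09, 2.08 and 1.96 CPM in sham rats. The groups did not overlap, and all 5 sham rats, not only rats 8 and 11, lay above the NT3 rats. The log2 fold change was -0.62 ± 0.16 (SE; unadjusted p 0.000810, adjusted p 0.505 in edgeR), -0.61 with the covariate and -0.49 without rats 8 and 11. Spata24 had 3.25, 3.52, 3.36, 3.90 and 3.71 CPM in NT3 rats, against 4.36, 6.84, 4.40, 4.91 and 4.25 CPM in sham rats, with rat 11 far above the rest. Its groups did not overlap either, and its log2 fold change of -0.48 ± 0.13 was -0.43 with the covariate and -0.33 without rats 8 and 11.

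Gal, the neuropeptide galanin, which sensory neurons make in larger amounts after nerve injury, had 7.83, 9.91, 9.43, 8.19 and 7.94 CPM in NT3 rats, against 11.6, 15.9, 9.78, 13.5 and 12.1 CPM in sham rats. Sham rat 54 lay within the NT3 range and the other 4 sham rats lay above it. The log2 fold change was -0.54 ± 0.15 (SE; unadjusted p 0.00160, adjusted p 0.505 in edgeR), -0.41 with the covariate and -0.43 without rats 8 and 11. The injury gene Atf3 stood at 22.8 ± 2.27 CPM in NT3 rats and 21.4 ± 2.31 CPM in sham rats (SD, n = 5 each). Sprr1a, another gene of axon injury, had 13 reads over the 10 libraries and was not tested. Of 24 tested genes of axon injury and regeneration 13 were positive, with a median log2 fold change of 0.04.

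The other lower transcripts with the smallest p had smaller differences without sham rats 8 and 11. Rbks, ribokinase, had 11.5, 12.4, 11.5, 9.62 and 12.3 CPM in NT3 rats, against 15.2, 19.6, 12.3, 13.3 and 14.0 CPM in sham rats, and its log2 fold change was -0.37 with all libraries and -0.18 without those rats. Smim20, a protein of cytochrome oxidase assembly, stood at -0.36 and at -0.14 without them, and Polr2j, a subunit of RNA polymerase II, at -0.35 and -0.15. Eif2b2, a subunit of the translation factor eIF2B, stood at -0.33 and -0.10, the Elongator subunit Elp5 at -0.27 and -0.12, and S100a16, a calcium-binding protein, at -0.37 and -0.15. Fam216a, whose groups did not overlap (48.9 ± 2.26 CPM in NT3 rats, 59.3 ± 7.0 CPM in sham rats; SD, n = 5 each), stood at -0.28 and -0.15.

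For the ligands, receptors and adaptors of neurotrophins the direction depended on the fit. Of 25 tested transcripts 12 were positive with all libraries, with a median log2 fold change of 0.00, 3 higher and 1 lower at an unadjusted p under 0.05. With the covariate 21 were positive (median 0.06), against 5876 of all 12556 tested, and without rats 8 and 11 17 were positive (median 0.02). In both of these fits 0 were higher and 0 lower at that threshold. No read was counted on any of the 3 listed transcripts of Ntrk3, the receptor of NT3, or the 4 of Ntf3, which encodes NT3 itself, in any of the 10 libraries. Both genes are listed with several transcripts, between which shared reads can be set aside as ambiguous, so no level of either gene can be read from these files. Ngfr, the p75 receptor shared by all neurotrophins, had 931, 986, 884, 794 and 784 CPM in NT3 rats, against 1317, 775, 721, 980 and 846 CPM in sham rats. Its log2 fold change was -0.08 ± 0.13 (SE), with rat 8 the highest and the groups overlapping, and it changed sign, to 0.08 with the covariate and 0.06 without rats 8 and 11.

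Ntrk2, which binds brain-derived neurotrophic factor, was counted on 2 transcripts. NM_001163168 averaged 327 ± 19.5 CPM in NT3 rats and 287 ± 67.7 CPM in sham rats, and NM_012731 averaged 38 ± 6.71 CPM in NT3 rats and 32.6 ± 8.14 CPM in sham rats (SD, n = 5 each). Their log2 fold changes were 0.19 and 0.22, and 0.00 and 0.06 without rats 8 and 11. Kidins220, a scaffold that docks on Trk receptors, averaged 750 ± 83.2 CPM in NT3 rats and 612 ± 161 CPM in sham rats. Sorcs3, a sorting receptor of the sortilin family, averaged 73.0 ± 6.96 CPM in NT3 rats and 62.0 ± 12.4 CPM in sham rats. Bex3, an adaptor of p75, averaged 96.3 ± 6.96 CPM in NT3 rats and 114 ± 16.5 CPM in sham rats (SD, n = 5 each). These were among the 4 at an unadjusted p under 0.05, with log2 fold changes of 0.29, 0.24 and -0.25 that were 0.06, 0.07 and -0.10 without rats 8 and 11. The fourth was Sorl1, another receptor of the sortilin family, named because its NT3 rats (380 ± 17.6 CPM) all lay above the sham rats (321 ± 82.0 CPM). The margin was narrow, since the lowest NT3 rat had 368 CPM. Sham rat 11 alone was far below with 175 CPM, and the other sham rats had 348 to 363 CPM. The log2 fold change of Sorl1 was 0.24, and 0.10 without rats 8 and 11. Among 27 tested genes that neurotrophin signals induce or that dampen them, 11 were positive, with a median of -0.05 and none at an unadjusted p under 0.05 in either direction. The median was 0.02 with the covariate (15 of 27 positive) and 0.06 without rats 8 and 11 (16 of 27).

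Markers of neuron types gave small medians. For proprioceptors 4 of 11 tested transcripts were positive, with a median log2 fold change of -0.06. With the covariate 2 of 11 were positive (median -0.06), and without rats 8 and 11 1 of 11 (median -0.10), with none at an unadjusted p under 0.05 in either fit. Pvalb, the calcium buffer that marks them, had 149, 144, 165, 151 and 169 CPM in NT3 rats, against 166, 247, 194, 135 and 174 CPM in sham rats. The NT3 values lay inside the range of the sham values, which rat 11 extended upward. The log2 fold change was -0.24 ± 0.12 (SE; unadjusted p 0.0514, adjusted p 0.550 in edgeR) and -0.10 without rats 8 and 11. Calb2, the calcium buffer calretinin, was the only one of these 11 at an unadjusted p under 0.05 (120 ± 12.1 CPM in NT3 rats, 141 ± 32.4 CPM in sham rats; SD, n = 5 each). Its log2 fold change of -0.24 was -0.11 without rats 8 and 11. The medians were 0.04 for low-threshold mechanoreceptors (8 of 13 positive), 0.03 for peptidergic nociceptors (9 of 16) and 0.01 for non-peptidergic nociceptors (9 of 15). For genes common to all neurons 6 of 20 were positive with all libraries (median -0.08), 8 with the covariate (median -0.02) and 12 without rats 8 and 11 (median 0.01). Gng3, a G protein subunit, stood at 327 ± 13.3 CPM in NT3 rats and 383 ± 61.6 CPM in sham rats. Sncg, gamma-synuclein, stood at 1209 ± 50.4 CPM in NT3 rats and 1464 ± 335 CPM in sham rats. Without rats 8 and 11 their log2 fold changes of -0.23 and -0.28 were -0.05 and -0.03.

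Genes of axon guidance, sodium channels and synapses had positive medians, which were smaller with the covariate and without sham rats 8 and 11. Of 43 tested axon guidance genes 33 were positive (76.7%, against 52.0% of all tested), with a median log2 fold change of 0.18, which was 0.05 with the covariate and 0.02 without these rats. Their mean log2 CPM was 4.71, 4.35, 4.71, 4.78 and 4.67 in NT3 rats, against 4.21, 4.09, 4.57, 4.73 and 4.66 in sham rats. Rats 8 and 11 were the lowest, NT3 rat 69 came next, and the other 7 rats lay between 4.57 and 4.78. Nrp2, a receptor of semaphorins, had 86.0, 71.9, 77.8, 77.1 and 73.5 CPM in NT3 rats, against 65.6, 38.8, 68.6, 80.8 and 69.7 CPM in sham rats. The netrin receptor Unc5d averaged 1.32 ± 0.463 CPM in NT3 rats and 0.820 ± 0.200 CPM in sham rats (SD, n = 5 each). The only member at an unadjusted p under 0.05 was Dcc, another netrin receptor, named because its value was seen (1.15 ± 0.377 CPM in NT3 rats, 0.736 ± 0.397 CPM in sham rats; log2 fold change 0.63 ± 0.30, SE). Its log2 fold change was 0.36 with the covariate and 0.29 without rats 8 and 11.

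For voltage-gated sodium channels 8 of 11 were positive with a median of 0.17, which was 0.03 with the covariate and 0.02 without rats 8 and 11. Scn11a, a channel of nociceptors, had 789, 758, 584, 731 and 829 CPM in NT3 rats, against 918, 420, 635, 667 and 616 CPM in sham rats. For potassium channels 25 of 42 were positive (median 0.06), or 59.5%, near the 52.0% of all tested. Kcna2, a channel of the axon membrane next to the nodes, had 91.3, 50.4, 79.3, 98.5 and 70.5 CPM in NT3 rats, against 62.9, 26.8, 87.8, 52.7 and 63.3 CPM in sham rats. The groups overlapped and the log2 fold change was 0.41 ± 0.25 (SE; adjusted p 0.631 in edgeR), 0.26 with the covariate and 0.21 without rats 8 and 11. Among calcium, HCN and sensory cation channels (21 of 35 positive, or 60%, median 0.06), Cacna1c, an L-type calcium channel, was higher at an unadjusted p under 0.05. It averaged 73.1 ± 5.67 CPM in NT3 rats and 59.2 ± 14.1 CPM in sham rats (SD, n = 5 each), and rat 11 alone was low with 34.4 CPM. Genes of synapses and vesicles had a median of 0.11 (34 of 46 positive), which was 0.04 with the covariate and 0.05 without rats 8 and 11. Among them were Sv2b (587 ± 30.7 CPM in NT3 rats, 519 ± 84.7 CPM in sham rats) and Syt1 (131 ± 25.3 CPM in NT3 rats, 108 ± 20.6 CPM in sham rats). For neurofilaments and the axonal cytoskeleton the median was 0.05 (13 of 21 positive). The motor protein Kif5c stood at 511 ± 50.2 CPM in NT3 rats and 409 ± 124 CPM in sham rats (SD, n = 5 each). Sv2b and Kif5c had log2 fold changes of 0.18 and 0.32, and both were 0.05 without rats 8 and 11.

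**Figure D4:**
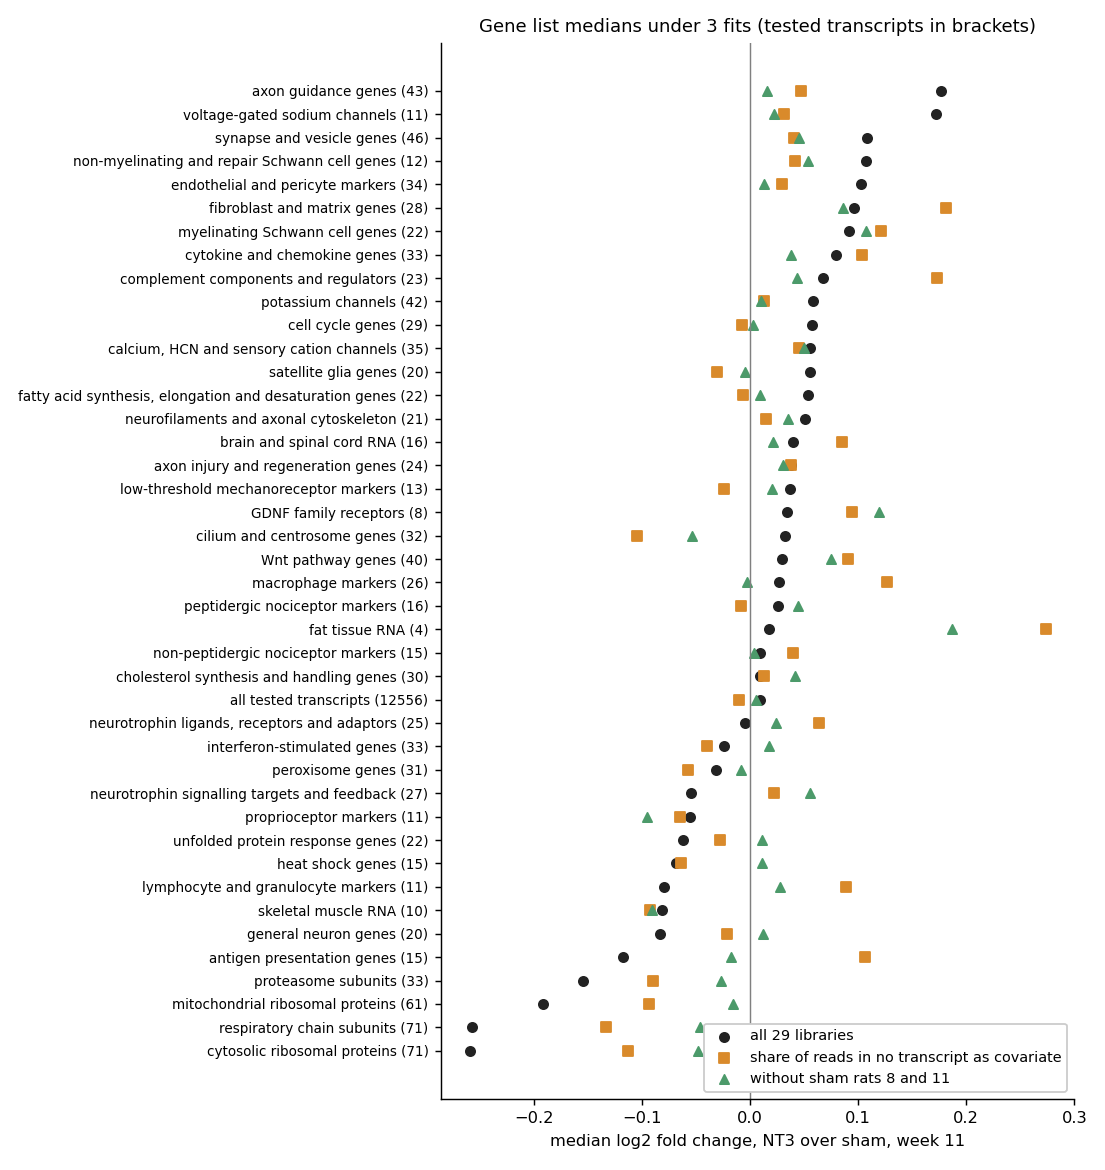
Median log2 fold change of NT3 over sham at week 11 for 41 gene lists and for all tested transcripts, with the number of tested transcripts in brackets, under 3 fits shown by the shape of the point; the list of blood cell genes (median 1.17) lies outside the axis and is not drawn. The medians of the ribosomal and respiratory lists run from -0.26 with all libraries to -0.05 without sham rats 8 and 11, and those of axon guidance and sodium channel genes from 0.18 and 0.17 to 0.02.

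Genes of myelinating Schwann cells leaned slightly upward under all 3 fits, with 17 of 22 positive and a median of 0.09 with all libraries, 19 of 22 and 0.12 with the covariate, and 19 of 22 and 0.11 without sham rats 8 and 11. Of all 12556 tested, 6531, 5876 and 6591 were positive in these fits. The list's median was -0.01 for vehicle over sham at week 11 and -0.05 for NT3 over sham at week 5. Drp2, a dystrophin-related protein of the myelin sheath, was the only member at an unadjusted p under 0.05, with 300, 328, 312, 311 and 235 CPM in NT3 rats, against values between 216 and 274 CPM in the 5 sham rats. All NT3 rats but rat 89 lay above the sham rats (log2 fold change 0.25 ± 0.11, SE; adjusted p 0.505 in edgeR). Mal, a membrane protein of compact myelin, averaged 232 ± 18.0 CPM in NT3 rats and 214 ± 28.0 CPM in sham rats (SD, n = 5 each). The mean log2 CPM of the list overlapped between groups (6.24 to 6.53 in NT3 rats, 6.22 to 6.40 in sham rats). For non-myelinating and repair Schwann cells the median was 0.11 (8 of 12 positive), 0.04 with the covariate and 0.05 without these rats, and for satellite glia 0.06 (12 of 20), which was -0.03 with the covariate.

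Genes of fibroblasts and matrix leaned upward under all 3 fits as well. Their median was 0.10 (22 of 28 positive), 0.18 with the covariate (25 of 28) and 0.09 without rats 8 and 11 (24 of 28). The fibril-associated collagen Col14a1 averaged 72.5 ± 3.76 CPM in NT3 rats and 61.0 ± 11.8 CPM in sham rats. The laminin chain Lamc1 averaged 286 ± 15.9 CPM in NT3 rats and 251 ± 39.7 CPM in sham rats (SD, n = 5 each). Col14a1 and Lamc1 had log2 fold changes of 0.25 and 0.19, which were 0.11 and 0.05 without rats 8 and 11. Macrophage markers had a median of 0.03 (15 of 26 positive), which was 0.13 with the covariate (20 of 26) and 0.00 without rats 8 and 11 (13 of 26). Fcgr1a, an antibody receptor of macrophages, averaged 3.82 ± 0.738 CPM in NT3 rats and 4.92 ± 1.56 CPM in sham rats. Genes of antigen presentation had a median of -0.12 (2 of 15 positive), which was 0.11 with the covariate and -0.02 without rats 8 and 11, so that no direction held across fits. Psmb8, a subunit of the immunoproteasome, averaged 12.5 ± 2.19 CPM in NT3 rats and 16.2 ± 3.72 CPM in sham rats. Its log2 fold change of -0.375 was -0.15 without rats 8 and 11.

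Interferon-stimulated genes were split, with 16 of 33 positive and a median of -0.02. Isg15, a ubiquitin-like protein, averaged 6.71 ± 2.05 CPM in NT3 rats and 9.52 ± 3.53 CPM in sham rats. Ifit3, an antiviral protein, averaged 3.59 ± 2.60 CPM in NT3 rats and 1.97 ± 0.778 CPM in sham rats (SD, n = 5 each). Complement genes had a median of 0.07 (19 of 23 positive), 0.17 with the covariate and 0.04 without rats 8 and 11. Cytokines and chemokines had a median of 0.08 (21 of 33), 0.10 with the covariate and 0.04 without these rats. Il6st, the signalling receptor shared by cytokines of the interleukin-6 family, averaged 674 ± 43.3 CPM in NT3 rats and 578 ± 115 CPM in sham rats. Its log2 fold change of 0.22 was 0.06 without rats 8 and 11. Ccl21, a chemokine that draws dendritic cells and lymphocytes, had 5.43, 6.11, 1.93, 8.02 and 2.97 CPM in NT3 rats, against 1.82, 3.39, 0.659, 2.95 and 2.87 CPM in sham rats. Cd7, a marker of T and natural killer cells, had 1.06, 7.75, 0.552, 0.879 and 8.34 CPM in NT3 rats, against 0.666, 0.556, 1.04, 0.912 and 0.955 CPM in sham rats. NT3 rats 69 and 89 alone carried its log2 fold change of 2.15 ± 0.96, while the list of lymphocyte and granulocyte markers had a median of -0.08 (5 of 11 positive), which was 0.09 with the covariate and 0.03 without rats 8 and 11. High values of Cd7 also occurred in other groups. Its maximum was 8.0 CPM in vehicle rats of week 11. At week 5 it was 6.71 CPM in sham, 5.99 CPM in vehicle and 1.10 CPM in NT3 rats.

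Red blood cell genes were high in 1 NT3 rat. Slc4a1, the anion exchanger of red cells, had 0.160, 0.141, 0.184, 0.330 and 30.3 CPM in NT3 rats, against 0.364, 0.889, 0.0550, 0.304 and 1.06 CPM in sham rats. Hbb, the beta chain of haemoglobin, had 11.5, 10.6, 5.61, 6.60 and 139.6 CPM in NT3 rats, against 10.1, 24.1, 7.09, 8.34 and 10.1 CPM in sham rats. Globin genes have near-identical copies, so reads of Hbb could be split between them. NT3 rat 89 was far above the other 9 rats in both, and without it the log2 fold changes were -1.38 for Slc4a1 and -0.47 for Hbb, against 3.51 ± 1.20 and 1.54 ± 0.78 with all libraries. Over the 6 tested blood cell genes the mean log2 CPM was 3.74 in rat 89 and -0.47 to 0.33 in the other NT3 rats, against -0.21 to 1.04 in sham rats. Tal1, a transcription factor of blood and endothelial precursors, was also highest in rat 89 with 8.91 CPM, against 3.54 to 5.08 CPM in the other NT3 rats and 2.42 to 4.34 CPM in sham rats (log2 fold change 0.65 ± 0.20). The part that blood in rat 89 has in the value of Tal1 was not tested.

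With the share of reads outside transcripts as a covariate, further transcripts joined those with the smallest p, none with an adjusted p under 0.730 in edgeR. Aldh3a1, an aldehyde dehydrogenase, had 2.29, 3.43, 0.644, 0.824 and 0.971 CPM in NT3 rats, against 0.788, 0.333, 0.605, 0.999 and 0.637 CPM in sham rats, so that rats 36 and 69 alone stood apart. The receptor Gpr83 averaged 7.91 ± 1.20 CPM in NT3 rats and 7.12 ± 1.50 CPM in sham rats. The BMP-binding protein Bmper averaged 10.9 ± 2.33 CPM in NT3 rats and 8.86 ± 1.97 CPM in sham rats. For the mitochondrial dehydrogenase Idh2 the means were 76.7 ± 6.30 CPM in NT3 rats and 67.6 ± 11.3 CPM in sham rats (SD, n = 5 each). The groups of all 3 overlapped, and their log2 fold changes with the covariate were 0.36, 0.47 and 0.29. Sycp2, a protein of the synaptonemal complex, had 0.746, 0.376, 1.47, 2.03 and 2.46 CPM in NT3 rats, against 0.545, 1.45, 2.53, 2.65 and 2.65 CPM in sham rats. Its log2 fold change was -1.21 with the covariate, the smallest p there among lower transcripts averaging at least 1 CPM, and -0.50 ± 0.48 (SE) without it.

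Other lists gave medians near 0. These were 0.03 for GDNF family receptors (5 of 8 positive) and -0.07 for heat shock genes (5 of 15). For RNA of other tissues they were -0.08 for skeletal muscle (3 of 10), 0.04 for brain and spinal cord (10 of 16) and 0.02 for fat (2 of 4). Genes of cholesterol synthesis and handling had a median of 0.01 (16 of 30 positive). The farnesyl diphosphate synthase Fdps averaged 343 ± 25.1 CPM in NT3 rats and 406 ± 81.7 CPM in sham rats. The sterol carrier Stard4 averaged 34.5 ± 1.01 CPM in NT3 rats and 28.9 ± 5.30 CPM in sham rats (SD, n = 5 each). Without rats 8 and 11 the log2 fold changes of Fdps and Stard4, -0.24 and 0.25, were -0.01 and 0.09. For fatty acid synthesis the median was 0.05 (15 of 22 positive). Acsl1, which activates fatty acids, averaged 140 ± 4.88 CPM in NT3 rats and 127 ± 8.70 CPM in sham rats. In the unfolded protein response (9 of 22 positive, median -0.06) the asparagine synthetase Asns had 146 ± 3.04 CPM in NT3 rats and 163 ± 12.4 CPM in sham rats. Its groups did not overlap. Sdf2l1, an endoplasmic reticulum protein, averaged 11.3 ± 1.18 CPM in NT3 rats and 15.5 ± 4.74 CPM in sham rats. The stress kinase Eif2ak3 averaged 74.5 ± 3.54 CPM in NT3 rats and 68.0 ± 6.08 CPM in sham rats. Asns, Sdf2l1 and Eif2ak3 had log2 fold changes of -0.17, -0.45 and 0.13, which were -0.08, -0.07 and 0.065 without rats 8 and 11. Cell cycle genes had a median of 0.06 (16 of 29 positive). The ribonucleotide reductase subunit Rrm2 averaged 10.3 ± 1.99 CPM in NT3 rats and 8.54 ± 1.18 CPM in sham rats. Among cilium genes (18 of 32 positive, median 0.03, and -0.10 with the covariate) Ift27, a subunit of intraflagellar transport, was below every sham rat in all NT3 rats (18.9 ± 0.646 CPM in NT3 rats, 24.3 ± 5.80 CPM in sham rats). Its log2 fold change of -0.36 was -0.19 with the covariate and -0.08 without rats 8 and 11, which had 32.7 and 28.2 CPM.

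Genes of the Wnt pathway, a signalling system of development and tissue repair, had a median of 0.03 (22 of 40 positive), and 5 of the 40 were higher and 0 lower at an unadjusted p under 0.05, against 2.29% and 6.83% of all transcripts tested. They were Rspo3, Sfrp1, Fzd4, Tcf7l1 and Lrp6, of which Rspo3 and Lrp6 are named because their values were seen. Sfrp1, a secreted binder of Wnt proteins, had 90.7, 97.6, 87.2, 94.0 and 98.05 CPM in NT3 rats, against 75.5, 69.5, 92.3, 88.2 and 85.3 CPM in sham rats. The receptor Fzd4 averaged 23.2 ± 4.04 CPM in NT3 rats and 18.45 ± 4.44 CPM in sham rats. The transcription factor Tcf7l1 averaged 22.4 ± 2.95 CPM in NT3 rats and 18.8 ± 2.95 CPM in sham rats. The secreted Wnt enhancer Rspo3 averaged 0.715 ± 0.294 CPM in NT3 rats and 0.332 ± 0.101 CPM in sham rats (SD, n = 5 each). Lrp6 had 21.0 and 18.1 CPM in sham rats 8 and 11, against 35.8 to 40.6 CPM in the other sham rats. The log2 fold changes of Sfrp1, Fzd4, Tcf7l1, Lrp6 and Rspo3 were 0.19, 0.33, 0.25, 0.38 and 1.07 with all libraries. They were 0.09, 0.12, 0.15, 0.08 and 0.97 without rats 8 and 11. In that fit 1 of the 40 was higher at that threshold, against 0.605% of all transcripts. With the covariate 28 of 40 were positive (median 0.09), with 3 higher and 0 lower, against 1.38% and 5.04% of all transcripts.

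Whether the difference between NT3 and sham rats itself differed between week 11 and week 5 was tested in the same fit. No transcript was called (smallest adjusted p 0.9998 in edgeR), DESeq2 called 0 as well (177 at an unadjusted p under 0.05), and 186 transcripts (1.48%) had an unadjusted p under 0.05 in edgeR. Limma voom with quality weights called 5, Chaf1b, Mcu, Wdr93, Stk31 and Tp53inp2. The smallest p in edgeR belonged to Tent4a, whose log2 fold change of NT3 over sham was 0.18 at week 11 and -0.12 at week 5, a difference of 0.30 ± 0.08 (SE; unadjusted p 0.00140). Spata24 stood at -0.48 at week 11 and 0.16 at week 5, a difference of -0.64 ± 0.19 (SE; unadjusted p 0.00258), and Gal at -0.54 and 0.11, a difference of -0.64 ± 0.22 (SE; unadjusted p 0.00751). Gal averaged 8.66 ± 0.949 CPM in NT3 rats and 12.6 ± 2.31 CPM in sham rats at week 11 (SD, n = 5 each). It averaged 10.8 ± 1.35 CPM in NT3 rats (n = 5) and 9.996 ± 1.197 CPM in sham rats (n = 4) at week 5. The week 11 sham rats thus had the highest mean of Gal among these groups.

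The vehicle rats of week 11 are set beside these values, although both stroke groups are compared with the same sham rats. Pex11a averaged 26.2 ± 5.21 CPM in NT3 rats, 22.8 ± 4.60 CPM in vehicle rats and 15.1 ± 3.04 CPM in sham rats at week 11 (SD, n = 5 each). The log2 fold changes over sham were 0.79 for NT3 and 0.59 for vehicle. Wdr93 averaged 1.29 ± 0.453 CPM in NT3 rats, 1.08 ± 0.281 CPM in vehicle rats and 0.443 ± 0.246 CPM in sham rats. Adamtsl3 averaged 30.6 ± 4.23 CPM in NT3 rats, 31.4 ± 4.99 CPM in vehicle rats and 20.4 ± 3.08 CPM in sham rats. Gal averaged 8.66 ± 0.949 CPM in NT3 rats, 8.33 ± 1.23 CPM in vehicle rats and 12.6 ± 2.31 CPM in sham rats. For these genes the means of the 2 stroke groups lay close together and the sham mean apart, but in each gene vehicle and sham rats overlapped. The lowest vehicle rat had 16.45 CPM of Pex11a, for example, and the highest sham rat 18.2 CPM. At week 5 Wdr93 averaged 0.790 ± 0.286 CPM in NT3 rats (n = 5) and 0.918 ± 0.369 CPM in sham rats (n = 4), a log2 fold change of -0.22. For Vwf the vehicle mean lay between, with 60.0 ± 8.13 CPM in NT3 rats, 50.0 ± 9.72 CPM in vehicle rats and 43.1 ± 6.77 CPM in sham rats. Kcna2 gave a log2 fold change of 0.41 for NT3 over sham, 0.92 for vehicle over sham and -0.51 for NT3 over vehicle. The medians of the respiratory chain and the cytosolic ribosome were -0.18 and -0.16 for vehicle over sham at week 11, where rats 8 and 11 are among the sham rats as well, and -0.07 and -0.05 for NT3 over sham at week 5, where they are not.

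**Figure D5:**
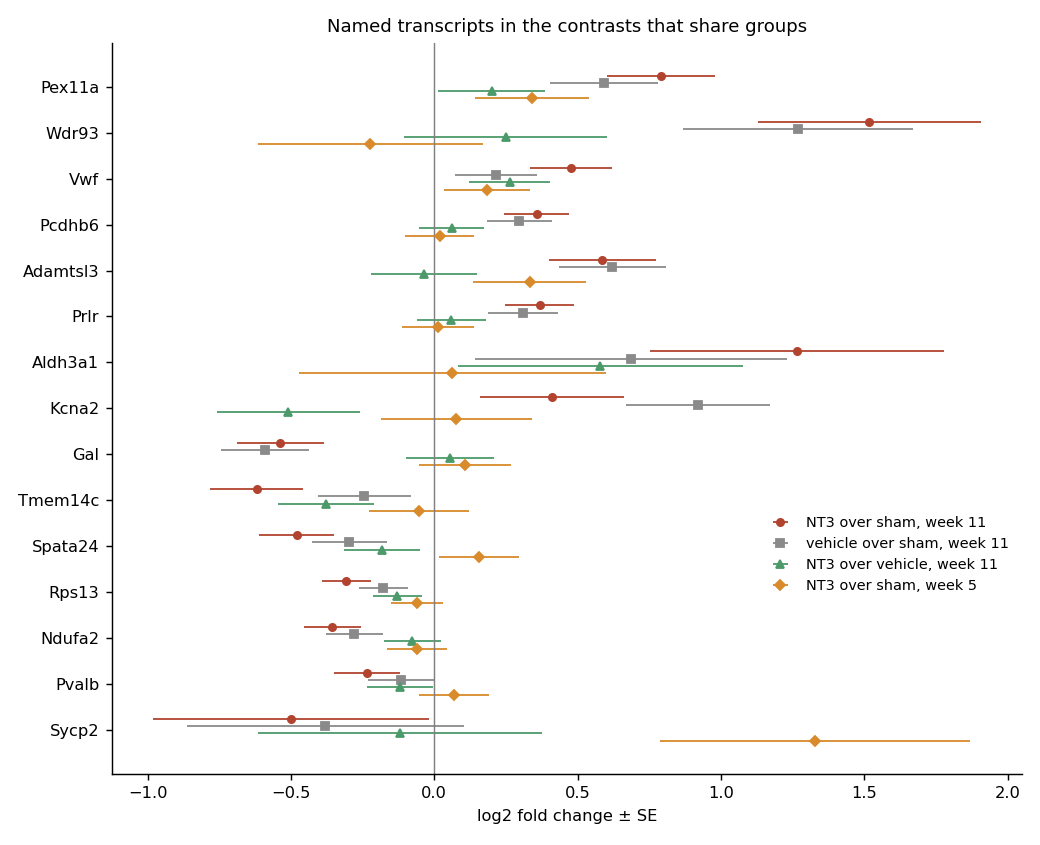
Log2 fold changes ± SE of 15 transcripts for NT3 over sham, vehicle over sham and NT3 over vehicle at week 11 and for NT3 over sham at week 5. The first pair of contrasts shares the 5 sham rats of week 11 and the one over vehicle shares the 5 NT3 rats with the first; Pex11a stands at 0.79, 0.59, 0.20 and 0.34 and Gal at -0.54, -0.59, 0.05 and 0.11.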

How the data were processed

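Per the labels' protocols, poly-A RNA (RNA integrity above 7.6) was made into stranded TruSeq libraries. The deposited files hold the authors' raw counts per RefSeq transcript, whose name says that duplicates were removed. The submitters' processing notes list bcl2fastq 1.8.4, TopHat2, Picard, HTSeq, rn6 and Rnor_6.0 without roles, and the strand setting of the counting is not given in the sources used here. Of 18092 transcripts, 17090 matched a symbol in RefSeq (GRCr8), and the 1002 others held 4.56% of the counts. For 506 genes with several transcripts, reads shared between transcripts may have been set aside.

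The lines for reads outside transcripts, ambiguous reads and reads without a unique alignment stayed out of library sizes. Counts of all 29 libraries were fitted with group means in edgeR 4.0.16 (R 4.3.3): TMM factors of 0.974 to 1.061, a filter on low counts (minimum 10, total 15) that kept 12556 transcripts, the quasi-likelihood test, 23 residual degrees of freedom, a common coefficient of biological variation of 0.185, and Benjamini-Hochberg adjustment at 0.05. The second fit added the centred share of reads outside transcripts. The SE is the absolute log2 fold change divided by the square root of F, an approximation. List levels are means of log2 CPM with a prior count of 2. Library measures were compared by an exact permutation test over the 252 divisions of 5 against 5. Alternatives used DESeq2 1.42.0, limma 3.58.1, other scalings and filters, fewer libraries and the authors' smaller deposited count table, whose 443932 values all equal those of the larger one. The fit was tested on simulated data drawn independently for each transcript, and the outcome is not given here.

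The comparison, the genes and the 42 gene lists were chosen with earlier results of these data known, so lists are described by counts and medians. Genes were named among transcripts averaging at least 1 CPM: the 12 smallest p in each direction, 8 with the covariate, 4 for the week difference, 3 in each list, and a fixed set with Ntrk2, Ngfr, Ntrk3, Ntf3, Pvalb, Atf3, Kcna2, Sprr1a and Vgf, of which the text names a part. Some genes are not reported here. Each library is 1 rat per the labels, so p-values measure the spread between rats. That spread is pooled over all 29 libraries and is not the spread within the NT3 and sham groups of week 11 alone. With those groups alone, 193 transcripts had an unadjusted p under 0.05 in edgeR, against 1145 with all libraries.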

Additional observations from a re-analysis of the deposited data

Results flagged for a closer look

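In each week 11 group of 5 rats, a rat was listed when its gap to the nearest other rat exceeded 0.71 of the group's range, Dixon's 95% critical value. Of 250 groups of 5 values scanned, 28 met this. Chance gives about 1 in 20 only for independent groups with a normal spread. These groups share the same rats and hold genes picked partly by p, so the count cannot be set against that rate.

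NT3 rat 69 stood below the other NT3 rats in the mean log2 CPM of neurofilament and axonal cytoskeleton genes (9.71, against 9.96 to 10.03), sodium channels (6.72, against 7.19 to 7.30), potassium channels (5.01, against 5.29 to 5.38) and calcium, HCN and sensory cation channels (5.22, against 5.47 to 5.50). The same rat was lowest in genes of axon guidance (4.35, against 4.67 to 4.78), synapses (6.0, against 6.29 to 6.40) and peroxisomes (4.92, against 5.06 to 5.09), and highest in cytosolic ribosomal proteins (7.18, against 7.04 to 7.07). Its Unc5d was 0.517 CPM, against 1.33 to 1.66 CPM in the other NT3 rats, and its Ntrk2 transcript NM_001163168 was 292.5 CPM, against 332.2 to 339.4 CPM. Rat 69 had the lowest share of reads outside transcripts among the NT3 rats (24.6%), and the part of that share in these values was not tested.

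NT3 rat 89 was highest in blood cell genes (3.74, against -0.47 to 0.33 in the other NT3 rats), with 30.3 CPM of Slc4a1, 139.6 CPM of Hbb and 8.91 CPM of Tal1. NT3 rat 83 was highest in Col14a1 (79.0 CPM, against 69.7 to 72.3 CPM) and in endothelial and pericyte markers (4.55, against 4.34 to 4.40), and lowest in Ndufa9 (140.2 CPM, against 147.5 to 149.1 CPM). NT3 rat 36 was highest in neurotrophin signalling targets (4.58, against 4.09 to 4.23), and NT3 rat 71 lowest in Wnt pathway genes (3.02, against 3.13 to 3.17).

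Among sham rats, rat 8 was lowest in genes of satellite glia (6.01, against 6.48 to 6.65), peroxisomes (4.89, against 5.05 to 5.07), the cell cycle (2.81, against 3.11 to 3.23) and cilia and centrosomes (4.30, against 5.05 to 5.18). Sham rat 11 was lowest in Cacna1c (34.4 CPM, against 63.0 to 69.5 CPM), in the Ntrk2 transcript NM_012731 (18.7 CPM, against 34.1 to 39.8 CPM) and in Tent4a (39.3 CPM, against 47.9 to 49.7 CPM). It was highest in Spata24 (6.84 CPM, against 4.25 to 4.91 CPM) and Hbb (24.1 CPM, against 7.09 to 10.1 CPM).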

How the results depend on the processing

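The 0 calls held in edgeR under every setting run and in DESeq2. Limma voom with quality weights called 4 transcripts between NT3 and sham rats, 1 with the covariate (Wdr93) and 5 for the difference between weeks, where 2094 had an unadjusted p under 0.05. Of Pex11a it gave a log2 fold change of 1.08. The 1145 transcripts at an unadjusted p under 0.05 numbered 193 with the contrast's groups alone and 111 without sham rats 8 and 11, and 358 to 2292 when 1 rat was left out (lowest without sham rat 11, highest without sham rat 54). With the covariate the 806 numbered 1717 with voom, 115 with the contrast's groups alone, 318 without rats 8 and 11, and 249 to 1587 when 1 rat was left out (lowest without NT3 rat 69, highest without sham rat 63). The 186 of the week difference numbered 930 with the covariate, 509 without rats 8 and 11, and 99 to 583 when 1 rat was left out (lowest without sham rat 11, highest without sham rat 8).

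Ngfr (-0.08) changed sign with voom (0.022), with the share outside transcripts (0.076) or of ambiguous reads (0.079) as covariate and without rats 8 and 11 (0.063), and spanned -0.17 to 0.11 when 1 rat was left out (highest without sham rat 8). Slc4a1 gave -0.46 with voom and spanned -1.38 to 3.91, and Hbb spanned -0.47 to 1.94, both lowest without NT3 rat 89. The cause of these changes was not tested. No paired analysis was possible because each rat number belongs to 1 library.

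With 5 rats a group, changes below the spread between rats were not detectable.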

Other observations

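Some transcripts spread widely among rats of both groups without separating them; these were chosen after their values were seen. Pcm1, a centrosome protein, had 99.2, 41.2, 192, 213 and 176 CPM in NT3 rats 36, 69, 71, 83 and 89, against 15.5, 99.1, 213, 164 and 187 CPM in sham rats 8, 11, 54, 63 and 81. Rb1cc1, which starts autophagy, had 73.8, 37.4, 190.0, 230.4 and 173 CPM in NT3 rats, against 15.03, 101, 219.6, 174 and 211 CPM in sham rats. NT3 rats 36 and 69 and sham rats 8 and 11 were the lowest in both. Fam111a, a protease tied to DNA replication, had 14.1, 2.58, 1.29, 2.14 and 3.48 CPM in NT3 rats, against 0.242, 1.83, 17.5, 1.69 and 14.7 CPM in sham rats, with NT3 rat 36 and sham rats 54 and 81 high.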
